A study of Mus musculus with 18 samples.

Results

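The genes described here are 9 receptors that guide T cells into inflamed and barrier tissue: Ccr2, Ccr4, Ccr6, Ccr8, Ccr9, Cxcr3, Cxcr4, Cxcr6 and Gpr15. They were taken by name from the deposited table of expected counts, which holds 23420 genes, and all 9 were present there and passed the filter on low counts together with the rest of the 10630 genes tested. The libraries come from sorted mouse regulatory T cells (Treg), the CD4 T cells that carry the transcription factor Foxp3 and restrain immune responses. The genotype labels are FCre x C1+/+, FCre x C1fl/+ and FCre x C1fl/fl, written here as +/+, fl/+ and fl/fl. FCre stands in every label, so the Cre is shared by all groups. It is known as a Cre driven from the Foxp3 locus, and the labels do not spell this out. Each genotype was sorted as resting (cTreg) and effector (eTreg) cells, and each of these 6 groups has 3 libraries, one for each of the numbers 1 to 3 that the labels call batch. The sources used here do not state age, sex, tissue, any treatment or the gates, nor whether libraries come from separate animals, so p-values measure only the spread between these samples.

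Chemokine receptors are G protein-coupled receptors that turn a gradient of a secreted chemokine into directed movement and integrin activation. Resting Treg mostly patrol lymphoid organs with CCR7 and S1PR1, whereas Treg that have met antigen lose part of that set and take up receptors for particular sites. CCR2 follows CCL2 into inflamed tissue, CXCR3 follows the interferon-induced CXCL9 and CXCL10, and CXCR6 binds CXCL16. CCR4 and CCR8 are known from skin and tumour Treg, CCR6 follows CCL20 to mucosa, CCR9 follows CCL25 to the small intestine, and GPR15 brings T cells to the large intestine. CXCR4, the receptor for CXCL12, keeps cells in bone marrow and other niches.

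In GRCm38 (GENCODE M21), 5 of the 9 genes lie on chromosome 9. Ccr9 (chr9:123678439-123784330), Cxcr6 (chr9:123806475-123811760) and Ccr2 (chr9:124101950-124113557) sit on the plus strand within 435.1 kb, a stretch that also holds Xcr1, Ccr1, Ccr1l1 and Ccr3. Ccr8 (chr9:120092114-120094906) and Ccr4 (chr9:114490316-114504916) are elsewhere on that chromosome. Ccr6 is at chr17:8236043-8257141, Cxcr3 at chrX:101731535-101734269, Cxcr4 at chr1:128588199-128592293 and Gpr15 at chr16:58717433-58719070. The coding sequence is 1059 to 1119 bases long in all 9. Cxcr6 overlaps Fyco1 and Gpr15 overlaps Cpox on the other strand, and Ccr9 overlaps Lztfl1 and Slc6a20a. The strand setting of the counting is not given, so reads in these overlaps could belong to either gene. Ccr2 can also share reads with other genes: 12 of its 17 values above 0 were not whole numbers (further than 0.005 from one). The same held for 17 of 18 Ccr4 values and for at most 6 of 18 in each of the other members.

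RefSeq promoter windows (GRCm38.p6, 250 bases before to 50 after a start site) were found for all 9 genes, with 2 windows for Ccr6. The windows shown are those of Ccr6, the member whose level passed the test between genotypes, of Ccr2, the member with the widest change between states, and of Cxcr4, the member with no detected change. Capitals mark matches, on either strand, to one of 7 motifs: the kappaB motif of NF-kappaB, the AP-1 motif TGANTCA, the T-box motif GGTGTGA, the nuclear receptor motif AGGTCA, the Ahr motif GCGTG, the Runx motif TGTGGT and the Gata motif AGATAA.
Ccr6 first start, chr17:8235793-8236092, plus strand: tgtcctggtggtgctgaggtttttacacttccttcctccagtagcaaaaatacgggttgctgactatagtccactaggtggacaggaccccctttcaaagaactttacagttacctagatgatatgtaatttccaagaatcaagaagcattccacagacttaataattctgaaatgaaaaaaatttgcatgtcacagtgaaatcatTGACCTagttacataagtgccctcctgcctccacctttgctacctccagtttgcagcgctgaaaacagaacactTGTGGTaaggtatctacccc
Ccr6 second start, chr17:8242276-8242575, plus strand: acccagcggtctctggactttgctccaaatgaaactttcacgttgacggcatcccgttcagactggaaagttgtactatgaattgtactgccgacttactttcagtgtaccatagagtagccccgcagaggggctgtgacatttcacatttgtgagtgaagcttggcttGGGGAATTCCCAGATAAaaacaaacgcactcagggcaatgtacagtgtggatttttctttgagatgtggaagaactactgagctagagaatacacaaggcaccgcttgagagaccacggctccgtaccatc
Ccr2, chr9:124101933-124102232, plus strand: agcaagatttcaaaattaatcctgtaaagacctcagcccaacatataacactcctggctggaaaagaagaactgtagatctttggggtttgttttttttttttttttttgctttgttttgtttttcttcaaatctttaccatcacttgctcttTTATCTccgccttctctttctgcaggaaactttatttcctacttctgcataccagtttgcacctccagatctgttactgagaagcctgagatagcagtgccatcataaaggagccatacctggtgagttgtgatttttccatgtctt
Cxcr4, chr1:128592250-128592549, minus strand: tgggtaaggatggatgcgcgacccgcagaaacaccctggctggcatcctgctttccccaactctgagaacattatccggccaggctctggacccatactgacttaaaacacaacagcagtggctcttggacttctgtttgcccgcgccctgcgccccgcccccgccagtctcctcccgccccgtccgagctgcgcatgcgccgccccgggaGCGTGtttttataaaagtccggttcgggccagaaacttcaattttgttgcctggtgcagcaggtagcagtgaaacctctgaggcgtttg
The second Ccr6 window is the single one of the 10 with a kappaB match, in which 2 matches overlap each other and run into an AGATAA match. A kappaB match was present in 8.459% of all 32851 RefSeq promoter windows. TGANTCA was found in 2 of the 10 windows (7.808% of all), GGTGTGA in 0 (3.979%), AGGTCA in 1 (16.26%), GCGTG in 3 (32.39%), TGTGGT in 4 (16.76%) and AGATAA in 3 (11.18%). These are letter matches and say nothing of binding.

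Libraries held 1658070 to 5756900 expected counts. Levels are CPM, expected counts scaled by the library total and its TMM factor, and a gene was called at an adjusted p under 0.05 in edgeR's quasi-likelihood test over all 10630 genes; every adjusted p below is from this test unless another is named. Foxp3, Il2ra, Cd4 and Cd3e were present in every group, and the 7 Treg markers summed to at least 2130 CPM in each library. In effector cells the sum was 2196 to 2831 CPM in fl/fl and 3098 to 3638 in +/+ libraries. There 2 of the 7 were called lower in fl/fl and 0 higher (1.65% and 1.17% of all genes). Ctla4 was at 235, 112 and 140 CPM in fl/fl and 507, 376 and 337 in +/+ effector libraries (numbers 1, 2 and 3). Ikzf2 was at 356, 220 and 246 against 600, 464 and 485 CPM. The part of this in the receptor values was not tested. In fl/fl cells, number 1 was the highest of the 3 libraries for all 9 receptors in the resting state and for 8 of 9 in the effector state, against 35% and 33.7% of all genes. In +/+ cells it was the highest for 6 of 9 in each state (32% of all genes in resting and 31.1% in effector cells). In fl/+ cells it was so for 3 of 9 in resting and 2 of 9 in effector cells (30.9% and 32.8%). High receptor levels in number 1 were thus most widespread in fl/fl but not particular to it. In fl/fl effector number 1, 7 markers of CD8 T and NK cells summed to 130.9 CPM (53.2 and 56.7 in the other 2 libraries). Klrb1c was at 21.8 (0.67 and 2.42 in numbers 2 and 3), Klrk1 at 20.2 (1.68 and 1.21) and Nkg7 at 62.8 CPM (21.8 and 23.0). Cd8a was at 2.70 (0.67 and 2.42), Ncr1 at 1.16 (0 and 0) and Cd8b1 at 16.2 CPM (17.8 and 15.7). Prf1 was lower there, at 5.97 CPM (14.1 and 8.46). Myeloid markers summed to 35.8 CPM (3.69 and 4.84), of which Ly6c2 made up 29.5, while Csf1r, Cd14, S100a8 and S100a9 were at 0, and dendritic cell markers summed to 34.5 CPM (1.81 and 6.04). In fl/fl resting number 1 the CD8 T and NK and the myeloid sums were 64.7 (44.6 and 48.0) and 14.6 (7.38 and 10.5). Other libraries also stood apart: B cell and dendritic cell markers summed to 96.3 and 69.9 CPM in +/+ resting number 3 (at most 17.8 and 1.62 in the other 2) and to 62.0 and 34.7 CPM in fl/+ resting number 3 (at most 20.1 and 10.2). Of the dendritic cell markers, H2-Ab1 averaged 14.2 CPM over all libraries and each of the others at most 1.41. The dendritic cell sums thus mostly follow H2-Ab1 and do not show dendritic cells as such. Without +/+ resting number 3, or fl/+ resting number 3, the same 8 receptors were called between the states of that genotype. Calls over all 10630 genes in either direction were then 1408 in +/+ and 1489 in fl/+. B cell, plasma cell, and epithelial and stromal markers of fl/fl effector libraries summed to 16.9 to 30.1, 98.5 to 123.8 and 2.42 to 10.2 CPM. The plasma cell sums mostly follow Xbp1, which averaged 108.9 CPM over all libraries. Igj, Sdc1 and Mzb1 averaged 2.27, 0.79 and 0.34 CPM and did not pass the filter. Between the states of +/+, Nkg7 and the epithelial marker Epcam were higher and Cd8b1 and Prf1 lower in effector cells, at 37.4, 15.0, 14.0 and 3.45 CPM against 7.57, 1.29, 22.7 and 16.8. Their part in the receptor values was not tested. Receptor comparisons of fl/fl cells between states and in effector cells are also given without the fl/fl libraries of number 1. This setting was chosen after the receptor values were seen. Those libraries held the highest fl/fl values of nearly all receptors, so leaving them out lowers fl/fl levels by construction. Its calls are given as a description only. Correlations, likeness and the gene lists below use all libraries and were not repeated without any of them.

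In +/+ Treg, 8 of the 9 receptors were higher in effector than in resting cells and none was lower, where 9.49% of all genes tested were higher. The median log2 difference of the 9 was 3.44, against -0.01 over all genes, and the ranges of the 3 libraries were apart for 7 of 9 (16.6% of all genes). Because libraries are bulk, more cells carrying a receptor and more mRNA per cell cannot be told apart.

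Receptors for inflamed tissue come first here. Ccr2 was at 1.78, 0.81 and 0.39 CPM in +/+ resting libraries and at 102.9, 82.5 and 72.4 in effector libraries (numbers 1, 2 and 3). Every effector library was far above every resting one, and the log2 difference was 6.24 (SE 0.76, 75.5-fold, adjusted p = 2.18e-05). Cxcr3 went from 3.81, 2.84 and 1.18 to 117, 116 and 112 CPM, the tightest effector values of the set (log2 difference 5.36, SE 0.64, adjusted p = 1.88e-05). Cxcr6 stood at 4.82, 6.89 and 5.13 CPM in resting and 140.5, 126.9 and 57.7 CPM in effector libraries, so that number 3 held less than the other 2 but remained above all resting values (4.29, SE 0.76, adjusted p = 0.000567). In resting cells Ccr2 rests on few reads, 9.69 expected counts over 3 libraries, and its fold is accordingly imprecise (95% interval of the log2 difference 4.65 to 7.83).

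Receptors known from skin and tumour Treg are next. Ccr4 was at 15.2, 9.73 and 5.53 CPM in resting and 118, 124 and 106 CPM in effector libraries (3.44, SE 0.30, adjusted p = 2.37e-06). Ccr8 was at 10.7, 6.89 and 5.13 CPM in resting and 53.9, 33.3 and 22.2 CPM in effector libraries (2.24, SE 0.42, adjusted p = 0.000901). For both genes no resting library reached an effector one, and for Ccr8 the libraries of number 1 were the highest in both states.

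The gut and mucosal receptors were spread over a wider range of differences. Ccr6 was at 9.64, 7.7 and 3.95 CPM in resting and 71.6, 87.7 and 46.9 CPM in effector libraries (3.21, SE 0.43, adjusted p = 4.28e-05). Gpr15 was at 1.78, 0.41 and 2.37 CPM in resting and 27.3, 23.3 and 18.1 CPM in effector libraries (3.86, SE 0.62, adjusted p = 0.000241), again with the groups apart. Ccr9 differed in that resting cells already held 21.8, 23.5 and 27.2 CPM. Its effector values were 77.1, 93.0 and 26.6 CPM, so that the effector library of number 3 fell inside the resting range although the gene was called (1.44, SE 0.33, adjusted p = 0.00481).

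Cxcr4 was the exception. It was at 13.4, 7.7 and 11.1 CPM in resting and 18.8, 14.3 and 8.87 CPM in effector libraries, with overlapping ranges and a log2 difference of 0.39 (SE 0.63, adjusted p = 0.745). The 95% interval, -0.93 to 1.71, leaves room for a change of either sign.

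**Figure D1:**
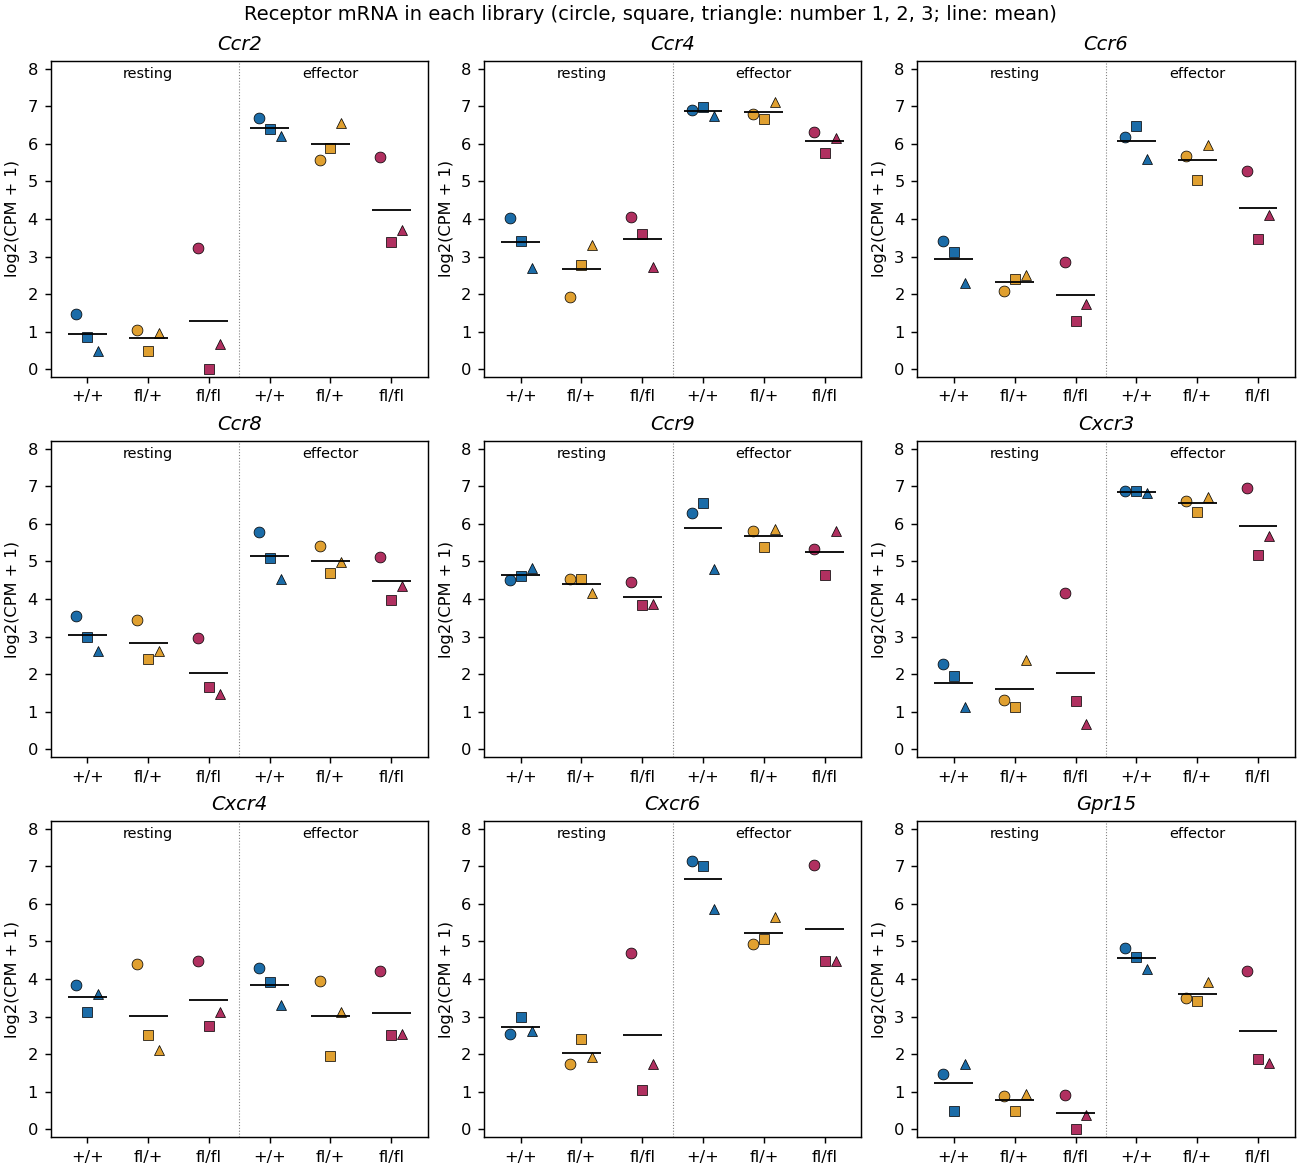
Levels of the 9 receptors in each of the 18 libraries, as log2(CPM + 1), with genotype on the horizontal axis, resting groups on the left and effector groups on the right of each panel. Symbols give the library number and lines the mean of the 3 log2 values; within a genotype, effector libraries lie above resting ones except for Cxcr4, for Ccr9 in +/+ and for Cxcr6 in fl/fl, and number 1 is the highest fl/fl library in every panel and state but effector Ccr9.

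On a scale that corrects for transcript length (the deposited FPKM), Cxcr3 was the most abundant of the 9 in +/+ effector cells at 78.65 ± 2.97 FPKM (SD, n = 3). Cxcr6 (62.4 ± 25.8), Ccr6 (48.3 ± 13.95), Ccr4 (44.65 ± 3.12) and Ccr8 (35.7 ± 16.5) came next, with each step in this order smaller than the larger SD of the pair. Ccr2 (25.5 ± 5.03), Gpr15 (19.8 ± 4.19), Ccr9 (15.8 ± 8.23) and Cxcr4 (8.44 ± 3.11) were the least abundant. In +/+ resting cells the order was another one: Ccr8 (6.90 ± 2.59), Cxcr4 (6.09 ± 1.703), Ccr9 (5.55 ± 0.74), Ccr6 (4.67 ± 1.94) and Ccr4 (3.67 ± 1.74) led, again with steps smaller than the larger SD, and Ccr2 was last at 0.27 ± 0.18 FPKM.

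In fl/+ Treg the same 8 receptors were higher in effector cells (9.72% of all genes), with a median log2 difference of 3.60 (-0.01 over all genes) and ranges apart for 8 of 9 (18% of all genes). Ccr2 rose by 6.20 (SE 0.80, adjusted p = 3.94e-05), Cxcr3 by 5.48 (SE 0.68) and Ccr4 by 4.45 (SE 0.34), from 2.80, 5.90 and 8.92 to 110, 99.4 and 137 CPM. Ccr9 rose by 1.31 (SE 0.33, adjusted p = 0.00934), here with no overlap: 22.0, 22.0 and 16.9 CPM in resting against 54.8, 40.7 and 56.8 CPM in effector libraries. Cxcr4 was at 20.2, 4.72 and 3.29 CPM in resting and 14.6, 2.85 and 7.74 CPM in effector libraries (-0.26, SE 0.63, adjusted p = 0.836). Without fl/+ resting number 1 the rise of Cxcr6 (3.59, SE 0.87, adjusted p = 0.00709) had an adjusted p of 0.0538, and 7 of 9 were called. Calls over all genes in either direction were then 1124, against 1732 with all libraries.

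In fl/fl Treg the same 8 were also called higher (5.01% of all genes), with a median log2 difference of 2.66 (-0.01 over all genes) and ranges apart for 7 of 9 (11.7% of all genes). Ccr4 went from 15.5, 11.2 and 5.61 to 79.2, 53.0 and 70.1 CPM (2.65, SE 0.31, adjusted p = 6.3e-05). Ccr8 went from 6.86, 2.16 and 1.77 to 33.5, 14.8 and 19.3 CPM (2.66, SE 0.48, adjusted p = 0.00229). Both receptors rose without any overlap between the states.

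For Cxcr3, Cxcr6 and Ccr2 the fl/fl libraries of number 1 were far above the others. Cxcr3 was at 17.0, 1.44 and 0.59 CPM in resting and at 122.9, 35.2 and 50.2 CPM in effector libraries (3.45, SE 0.56, adjusted p = 0.00105). Cxcr6 was at 25.1, 1.08 and 2.36 CPM in resting and 128.9, 21.1 and 21.2 CPM in effector libraries, so that resting number 1 lay above effector numbers 2 and 3 (2.64, SE 0.69, adjusted p = 0.0258). Ccr2 was at 8.35, 0 and 0.59 CPM in resting and 48.8, 9.39 and 12.1 CPM in effector libraries (3.04, SE 0.68, adjusted p = 0.0102). Gpr15 rose by 4.25 (SE 0.82), Ccr6 by 2.72 (SE 0.51) and Ccr9 by 1.26 (SE 0.35, adjusted p = 0.0382), while Cxcr4 was at -0.23 (SE 0.64, adjusted p = 0.898). Without both libraries of number 1, 7 of 9 receptors were called higher (2.94% of all genes), with Cxcr3 at 5.37 (SE 0.43), Ccr2 at 4.87 (SE 0.78) and Cxcr6 at 3.55 (SE 0.57). Ccr9 was then at 1.49 (adjusted p = 0.102). Leaving out the effector library of number 1 alone moved the other way, with Ccr2 at 1.75 (SE 0.69), Cxcr6 at 1.12 (SE 0.66) and Gpr15 at 2.53 (SE 0.76), and left 3 of 9 called, while leaving out resting number 3 left 5 of 9, and the other single libraries left 6 to 8. Calls over all genes, in either direction, fell as well, from 674 to 276 and 295. For the other single libraries they were 337 to 798. With the 2 compared groups fitted alone, Ccr2 and Cxcr6 had adjusted p-values of 0.0956 and 0.139. By DESeq2 that of Cxcr6 was 0.0586, and by limma on log2(FPKM + 1) that of Ccr9 was 0.055, so that 7 of 9 were called by each. Over all genes, DESeq2 called 756 and limma 702 in either direction.

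**Figure D2:**
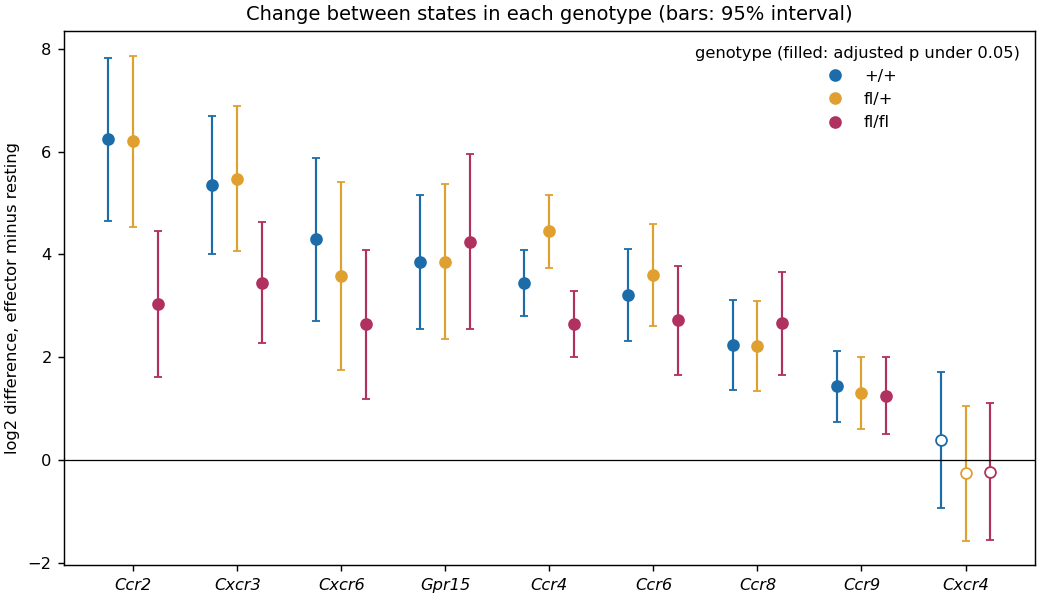
The log2 difference between effector and resting libraries for each receptor (vertical axis) in each genotype, with the 95% interval of the edgeR fit. Filled points passed the adjusted threshold of 0.05: 8 of 9 in every genotype, with Cxcr4 open in all 3.

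Whether the fl/fl genotype goes with less receptor mRNA was asked by comparing fl/fl with +/+ in effector cells. All 9 estimates were below 0, with a median of -0.78 against 0.01 over all genes, but Ccr6 was the sole receptor called, where 1.65% of all genes were called lower. The ranges of the libraries were apart for 4 of 9, Ccr2, Ccr4, Ccr6 and Gpr15, and fl/fl was lower in each (10.2% of all genes).

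Ccr6 was at 71.6, 87.7 and 46.9 CPM in +/+ and at 38.0, 10.1 and 16.3 CPM in fl/fl effector libraries, so that the highest fl/fl value lay below the lowest +/+ value. The log2 difference was -1.58 (SE 0.37, adjusted p = 0.0288). Leaving out any one of +/+ numbers 1 and 2 or fl/fl numbers 2 and 3 took the adjusted p to 0.116, 0.134, 0.158 and 0.102, with estimates of -1.55, -1.39, -1.23 and -1.44. With the 2 compared groups fitted alone the adjusted p was 0.0749, and with limma on log2(FPKM + 0.1) it was 0.0723. The second Ccr6 window shown above, with its kappaB match, belongs to this gene. A match in 1 of 10 windows is near the share over all promoter windows (8.459%), and whether that sequence bears on the level was not tested.

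Ccr2 was at 102.9, 82.5 and 72.4 CPM in +/+ and 48.8, 9.39 and 12.1 CPM in fl/fl effector libraries, with a log2 difference of -1.74 (SE 0.48, adjusted p = 0.0535). Gpr15 was at 27.3, 23.3 and 18.1 CPM in +/+ and 17.5, 2.68 and 2.42 CPM in fl/fl libraries (-1.41, SE 0.49, adjusted p = 0.123). Ccr4 was at 118, 124 and 106 CPM in +/+ and 79.2, 53.0 and 70.1 CPM in fl/fl libraries (-0.78, SE 0.25, adjusted p = 0.0965). In each of these 3 genes every fl/fl library was below every +/+ library, although the adjusted p missed the threshold.

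For the remaining members the ranges overlapped and none was called. Cxcr3, at 117, 116 and 112 CPM in +/+, was at 122.9 CPM in fl/fl number 1 but at 35.2 and 50.2 CPM in numbers 2 and 3 (-0.67, SE 0.43, adjusted p = 0.466). Cxcr6 showed the same division, with 128.9 CPM in fl/fl number 1 against 21.1 and 21.2 CPM (-0.83, SE 0.57, adjusted p = 0.512). Ccr8 was at -0.67 (SE 0.37), Ccr9 at -0.77 (SE 0.32) and Cxcr4 at -0.50 (SE 0.63), with 95% intervals of -1.45 to 0.10, -1.43 to -0.10 and -1.82 to 0.82.

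Within one number, fl/fl was below +/+ for Ccr2 by log2 differences of -1.07, -3.06 and -2.53 (numbers 1, 2 and 3, on log2 CPM with a prior count of 2), for Ccr6 by -0.91, -3.05 and -1.49, and for Gpr15 by -0.62, -2.86 and -2.64. Ccr4, Ccr8, Cxcr4 and Cxcr6 were also below in all 3 numbers, whereas Ccr9 (-0.97, -1.94 and 1.03) and Cxcr3 (0.07, -1.70 and -1.15) had both signs. The share of all genes with the same sign in all 3 numbers was not worked out. The receptors also vary together within groups, so these signs are not separate observations and are given as a description. With the number as a replicate block, 3 of 9 receptors were called lower (2.9% of all genes): Ccr2 (-1.89, adjusted p = 0.0149), Ccr6 (-1.68, adjusted p = 0.0074) and Gpr15 (-1.60, adjusted p = 0.0419). Without the fl/fl libraries of number 1, 6 of 9 were called lower (4% of all genes): Gpr15 (-3.14), Ccr2 (-3.05), Ccr6 (-2.44), Cxcr6 (-2.37), Cxcr3 (-1.46) and Ccr4 (-0.94), each with an adjusted p of at most 0.0411. Those libraries were picked for their high receptor values and left out of fl/fl only. The lower estimates thus follow in part from that choice, and these calls are a description only. With no filter on low counts 7 of 9 were called lower (2.29% of 19512 genes); in that fit the median prior degrees of freedom were infinite, and the members had quasi-dispersions of 0.76 to 0.98 in place of 2.0 to 9.67.

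**Figure D3:**
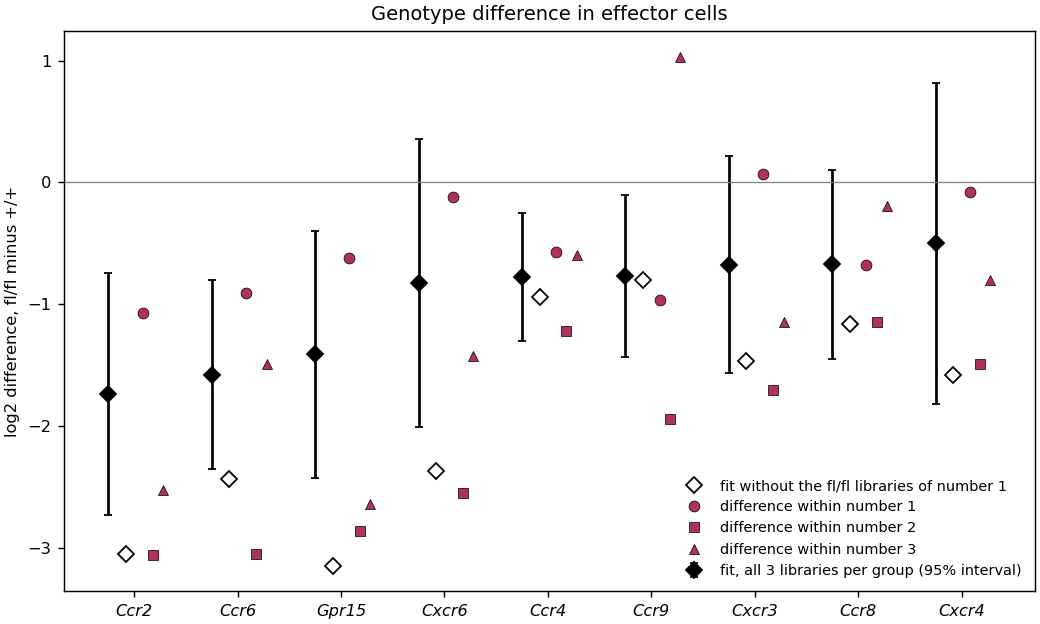
The log2 difference of fl/fl from +/+ in effector cells for each receptor (vertical axis): filled diamonds with 95% intervals from all libraries, open diamonds without the fl/fl libraries of number 1, and coloured symbols for the difference within each number. The differences within number 1 lie nearest 0 for 8 of the 9, all but Ccr8, and the open diamonds of Ccr2, Ccr6, Gpr15, Cxcr6, Cxcr3 and Cxcr4 lie well below the filled ones. For these genes number 1 was the highest fl/fl effector library, so leaving it out lowers the fl/fl mean by construction.

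Heterozygous cells were compared with both other genotypes, and these comparisons share their libraries with the one above. Against fl/+, no receptor was called in fl/fl effector cells (0 of 9, where 0.677% of all genes were called in either direction). Ccr2 was at -1.34 (SE 0.47, adjusted p = 0.215), Ccr6 at -1.06 (SE 0.37, adjusted p = 0.207) and Ccr4 at -0.77 (SE 0.25, adjusted p = 0.175). Without the fl/fl libraries of number 1, 4 of 9 were called lower (1.95% of all genes): Ccr2 (-2.63), Gpr15 (-2.12), Ccr6 (-1.92) and Cxcr3 (-1.16), each with an adjusted p of at most 0.0159. Here too the libraries were left out for their high receptor values, so these calls are a description only.

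Between fl/+ and +/+ effector cells, 0 of 9 were called (0.00941% of all genes, a single gene). The largest estimate was that of Cxcr6, at 29.5, 32.6 and 49.1 CPM in fl/+ and 140.5, 126.9 and 57.7 CPM in +/+ libraries (-1.56, SE 0.58, adjusted p = 0.684). For Cxcr6, Gpr15 (10.3, 9.58 and 14.3 CPM in fl/+) and Cxcr3 (97.2, 79.2 and 104 CPM in fl/+) every fl/+ library was below every +/+ library, 3 of 9 receptors against 5.83% of all genes. Ccr4, at 110, 99.4 and 137 CPM in fl/+, was level with +/+ within its interval (-0.01, 95% interval -0.51 to 0.50).

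Ordered by mean CPM, +/+ effector cells held the most and fl/+ effector cells the next most of Ccr2 (85.9 and 65.7), Ccr4 (116 and 115), Ccr6 (68.8 and 47.8), Ccr8 (36.4 and 32.2), Ccr9 (65.6 and 50.8), Cxcr3 (115 and 93.5) and Gpr15 (22.9 and 11.4), with fl/fl effector cells next. These first neighbours overlapped for all but Cxcr3 and Gpr15, and fl/+ and fl/fl effector overlapped for all but Ccr4. Cxcr6 had fl/fl effector (57.1) before fl/+ effector (37.1), on the strength of number 1. For Ccr2, Ccr4, Ccr6, Ccr8, Cxcr3, Cxcr6 and Gpr15, every library of the effector group with the lowest mean lay above every library of the resting group with the highest mean, and for Ccr9 and Cxcr4 these overlapped. For Cxcr6 the effector group with the lowest mean was fl/+. The fl/fl effector libraries of Cxcr6 went down to 21.1 CPM, below the highest fl/fl resting library at 25.1 CPM.

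In resting cells no genotype comparison called a receptor: 0 of 9 for fl/fl against +/+ (0.696% of all genes), 0 of 9 for fl/fl against fl/+ (0.0282%) and 0 of 9 for fl/+ against +/+ (0.0847%). Levels were low. Ccr6 was at 7.10 ± 2.89, 4.09 ± 0.76 and 3.36 ± 2.56 CPM (SD, n = 3) in +/+, fl/+ and fl/fl, and Ccr8 at 7.56 ± 2.82, 6.47 ± 3.01 and 3.60 ± 2.83 CPM. Gpr15 rested on 14, 7 and 4 counts over 3 libraries, at which depth a difference between genotypes was not detectable.

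The state change in fl/fl less that in +/+ tests whether the rise differs between genotypes. No receptor was called (0 of 9), and 0% of all genes were by edgeR, while DESeq2 called 15 genes and none of the 9. Ccr2 had the largest value, -3.20 (SE 1.27, unadjusted p = 0.0203, adjusted p = 0.474), and Cxcr3 was at -1.91 (SE 0.97, adjusted p = 0.582). Without the resting library of fl/fl number 1, Ccr2 was at -0.06 (SE 3.30, which leaves its value undetermined) and Cxcr3 at 0.80 (SE 1.10). Without both fl/fl libraries of number 1, Ccr2 was at -1.38 (SE 1.66) and Cxcr3 at 0.01. SEs were worked back from the F statistic, which is unreliable for an estimate this near 0, so none is given for Cxcr3. In that fit its state change in fl/fl alone had an SE of 0.43, so the difference remains imprecise.

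Levels also differed between library numbers. The effect of the number in the block fit was tested after these levels were seen: 1.65% of all genes differed, and Ccr8 (adjusted p = 0.00335) and Cxcr4 (adjusted p = 0.00382) were among them. Number 1 was the highest library for both genes in 6 of 6 groups. Cxcr4 averaged 17.7 CPM over the libraries of number 1 and 6.67 and 7.24 over numbers 2 and 3, and Ccr8 averaged 26.0, 14.4 and 14.0. Within numbers, Ccr8 was still lower in fl/fl than in +/+ in both states, by -0.67, -1.14 and -0.19 in effector and -0.59, -1.44 and -1.28 in resting cells on log2 CPM, with an adjusted p of 0.0588 in effector cells with the block. In fl/fl cells Cxcr4 was at 21.5, 5.77 and 7.67 CPM in resting and 17.7, 4.70 and 4.84 CPM in effector libraries. Library totals were 3351090 to 5756900 counts for number 1 and 1658070 to 4008930 for the other numbers, ranges that overlap, and in fl/fl resting cells number 3 was deeper than number 1; the part of depth in this was not tested. The other 7 receptors had adjusted p-values of 0.245 to 0.824 for the number.

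Across the 18 libraries, 8 of the receptors varied together. Pearson's r of log2 CPM was 0.79 to 0.98 over the 28 pairs without Cxcr4, highest for Ccr2 with Cxcr3, and 0.04 to 0.32 over the 8 pairs with Cxcr4. These values largely restate the difference between states. Taken as deviations from the group means, the median over 36 pairs was 0.58 (-0.03 to 0.89), with Ccr2 and Cxcr6 at 0.89, Ccr2 and Cxcr3 at 0.87 and Cxcr4 and Ccr8 at 0.84. The points share libraries, depth and the 2 fl/fl libraries of number 1, so r is given as a description.

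**Figure D4:**
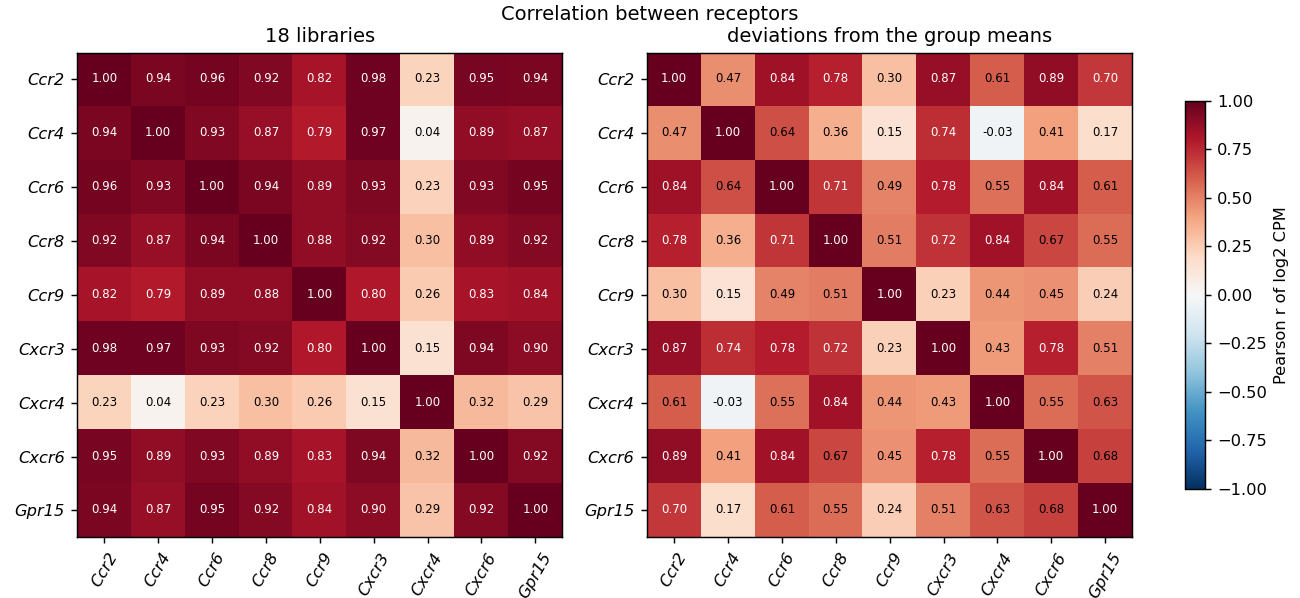
Pearson's r of log2 CPM between each pair of receptors, over the 18 libraries (left) and over deviations from the 6 group means (right), as colour and as printed value. The row of Cxcr4 is pale on the left, from 0.04 to 0.32, and joins Ccr8 at 0.84 on the right.

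Among all genes tested, those most like each receptor over the 18 libraries were Tigit, Ebi3 and Ces2c for Ccr2 (r = 0.98 each), S100a6, Myo1f and Gpm6b for Cxcr3 (0.98 each), and Cst7, Itgae and Cxcr5 for Ccr6 (0.99, 0.98 and 0.98). They included St14 and Cxcr3 for Ccr4 (0.97 each), Cd44, Trerf1 and Fbxw8 for Ccr8 (0.97, 0.96 and 0.96), Asb2, Myo1f and Serpina9 for Cxcr6 (0.96 each), and Icos, Matk and Cd82 for Gpr15 (0.97 each). Likeness was lower for Ccr9, with Epdr1, Susd2 and Susd3 (0.94, 0.93 and 0.93), and for Cxcr4, with Eif1, Sh3kbp1 and Maml2 (0.79, 0.79 and 0.77).

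Of 19 chemokine ligands 3 passed the filter on low counts, Ccl5, Ccl20 and Cxcl10. The filter keeps a gene that is high in the libraries of a single group. Low genes such as Ccl20 and Cxcl10 passed through libraries where they were high, so their differences were partly fixed in advance. Ccl20, the ligand of CCR6, was at a mean of 8.89 CPM in effector against 0.26 in resting +/+ cells (5.07, SE 0.79, adjusted p = 0.000172). In fl/fl effector cells it was at 1.89 CPM, lower than in +/+ (-2.40, SE 0.58, adjusted p = 0.0323), as its receptor Ccr6 was. Cxcl10, a ligand of CXCR3, was at 7.92 against 0.25 CPM between states of +/+ (4.46, SE 0.87) and at 3.03 CPM in fl/fl effector cells (-1.14, SE 0.59, adjusted p = 0.343).

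The lists that follow stand against 9.49% of all genes higher and 6.5% lower between the states of +/+, and 1.17% higher and 1.65% lower in fl/fl than in +/+ effector cells. Of 16 other chemokine receptors 8 were tested, and in +/+ cells 4 were higher and 1 lower in effector cells. Among them Cxcr5, which leads cells into B cell follicles, rose by 2.51 (SE 0.44, 145 against 25.2 CPM). Ccr1 and Ccr10 reached 4.65 and 3.997 CPM with no count in resting libraries. Both passed the filter only through other libraries, where they were high, so their rise was largely fixed in advance and is a description only. Ccr7, the lymph node receptor, fell by 0.82 (SE 0.17, 480 against 848 CPM), and it was higher in fl/fl than in +/+ effector cells (773 CPM, 0.68, SE 0.17, adjusted p = 0.0371), the 1 call among the 8. Of 7 receptors for other attractants, S1pr1, which leads cells out of lymph nodes, was likewise lower in effector +/+ cells (-2.01, SE 0.29) and higher in fl/fl than in +/+ effector cells (1.28, SE 0.29, adjusted p = 0.0215). Ltb4r1, the leukotriene B4 receptor, was at 13.6 CPM in +/+ and 1.88 in fl/fl effector cells (-2.81, SE 0.65, adjusted p = 0.033), with Gpr183 also lower (-0.66, SE 0.16) and the other 4 not called. Ltb4r1 averaged 3.56 CPM over all libraries, and the same limit of the filter holds for it.

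Of 25 tested genes of G protein signalling and desensitisation, 2 were higher (Gng2, Rgs16) and 3 lower (Rgs19, Elmo1, Pik3r5) between the states of +/+, with a median of -0.06 (-0.01 over all genes). In fl/fl against +/+ effector cells Pik3r5, a regulatory subunit of PI3K-gamma, was the 1 call (0.86, SE 0.19, adjusted p = 0.0223). Of 10 homing adhesion genes, whose examples were chosen after their values were seen, 5 rose between the states of +/+, with Itgae, the alpha chain that binds E-cadherin, at 3.88 (SE 0.66), and 1 fell. In fl/fl effector cells 1 of the 10 was higher than in +/+, none was lower, and Itgae was at 68.3 against 308 CPM (-2.09, SE 0.58, adjusted p = 0.0535).

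Of 22 transcription factors of homing programmes, 12 were higher and 4 lower between the states of +/+ (median 1.08), and 5 were lower and 4 higher in fl/fl than in +/+ effector cells (median -0.17). Maf, Ahr and Tbx21 are named after their values were seen. Prdm1 (-1.78, SE 0.33) and Batf (-0.80, SE 0.15), regulators of effector Treg, were lower, as were Maf (-1.62, SE 0.41) and Ahr (-1.56, SE 0.40). Lef1 (1.06, SE 0.18), Satb1 (1.27, SE 0.23), Bach2 (0.80, SE 0.16) and Klf2 (1.69, SE 0.39), which are kept by resting T cells, were higher. Tbx21, the factor of the CXCR3-bearing Th1 programme, was at 25.1 CPM in fl/fl and 20.0 in +/+ effector cells (0.46, SE 0.55, adjusted p = 0.751).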

How the data were processed

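RNA libraries from sorted mouse Treg, 3 in each of 6 groups of genotype and state, were described by their deposited tables. Per the submitters' processing notes the authors used bcl2fastq 2.17.1.14, STAR 2.6.0, RSEM 1.2.8 and build mm10; the sources used here state no annotation, strand setting or filter. The deposited expected counts of RSEM were rounded and tested in R 4.3.3 with edgeR 4.0.16 (TMM, filterByExpr by group, 6 group means, quasi-likelihood F test, Benjamini-Hochberg adjustment). The FPKM deposited by the authors gave levels per length and, as log2(FPKM + 1), a limma 3.58.1 alternative; DESeq2 1.42.0 was another. The tests were tried on simulated counts. Intervals cover 95%, and total counts limit the precision of low genes.

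The 9 receptors, the gene lists, the contrasts and the rule for named genes (all members, up to 6 called genes of a list by smallest adjusted p, and the 3 genes of highest r) were chosen with earlier results of these data known. Libraries of the same batch number in the labels were treated as matched in the block fit only. The block is shared by all genotypes, so it does not separately model the pairing of resting with effector cells within a genotype. In deviations from the group means, the 9 pairs of 1 genotype and number, resting with effector, correlated at 0.14 to 0.34 (median 0.20), and same-numbered libraries of other genotypes at a median of 0.07 over 36 pairs, 12 of them above 0.1. Replicates differed by more than counting noise, with a chi-square per gene of 3.38 to 6.90. No sequence of proteins was used here, and a few withheld genes are not reported here.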

Additional observations from a re-analysis of the deposited data

How the results depend on the processing

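Between the states of +/+, the differences of the 9 receptors kept their direction and side of the threshold in all 118 alternative values (block, scaling, filter, tool, pseudocount, single libraries left out). Between fl/fl and +/+ effector cells no estimate changed sign in 127. Receptors called there numbered 3 with the replicate block, 7 with no filter, 3 and 0 by limma on log2(FPKM + 1) and log2(FPKM + 0.1), 0 to 4 with 1 library left out and 6 without the fl/fl libraries of number 1, an alternative chosen after seeing the data. The block changed no other call of a receptor. For the state change in fl/fl, 3 to 8 were called with 1 library left out. For fl/fl against fl/+ effector cells it was 4 with no filter, 0 to 3 with 1 library left out and 4 without number 1. With no filter, 1 was called for fl/+ against +/+ effector cells, 2, 3 and 1 for fl/fl against +/+, fl/fl against fl/+ and fl/+ against +/+ in resting cells, and 3 for the difference in state change.

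Over all genes, 1091 to 1602 were called for the state change in fl/+ with 1 library left out (1732 with all). In fl/fl (674) it was 1012 with no filter, 334 with only the compared groups, 344 without number 1 and 276 to 798 with 1 library left out. For fl/fl against +/+ effector cells (299) limma with 1 gave 379. There it was 552 with the block, 455 by DESeq2, 830 with no filter, 143 with only those groups, 163 by limma with 0.1, 710 without number 1 and 32 to 664 with 1 library left out. For fl/fl against fl/+ effector cells (72) the same settings gave 181, 178, 488, 4, 14, 350 and 3 to 318, and limma with 1 gave 24. For fl/+ against +/+ effector cells (1) it was 34 with the block, 6 by DESeq2, 176 with no filter, 0 with only those groups, 2 by limma with 1 and 1 to 5 with 1 library left out. In resting cells, fl/fl against +/+ (74) gave 179, 128, 315 and 40 with the block, DESeq2, no filter and only those groups, and 6 to 159 with 1 library left out. There fl/+ against +/+ (9) gave 90, 39, 219, 4 and 3 to 74, and fl/fl against fl/+ (3) gave 6, 94 and 6 by DESeq2, no filter and only those groups, 10 without number 1 and 3 to 4. The difference in state change (0) gave 3 with the block, 15 by DESeq2, 246 with no filter, 3 by limma with 1 and 0 to 33. The cause was not tested. The share of calls that were higher moved from 59.4% to 74.1% in +/+, from 59.6% to 75.6% in fl/+ and from 79.1% to 92.2% in fl/fl for the state change by limma with 1, and from 41.5% to 52.1% with 0.1 for fl/fl against +/+ effector cells.

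Some estimates changed sign: 19, 12 and 7 values in 5, 5 and 4 receptors for fl/fl against +/+, fl/fl against fl/+ and fl/+ against +/+ in resting cells, 5 in 2 for fl/+ against +/+ effector cells, and 15 in 7 for the difference in state change. With single libraries left out, the state change of Cxcr4 ranged from -0.95 to 1.09 in fl/+ and from -1.29 to 0.57 in fl/fl; in fl/+ it was 0.072 and 0.10 by limma with 1 and 0.1. Against fl/+ effector cells, fl/fl ranged from -0.87 to 0.90 for Cxcr4, from -0.80 to 1.13 for Cxcr6 and from -2.12 to 0.012 for Gpr15, and without number 1 Cxcr4 was at -0.86 and Cxcr6 at -0.80. The difference in state change of Cxcr3 ranged from -2.69 to 0.80 and was 0.0060 without both fl/fl libraries of number 1. Few reads limit the resting levels of Ccr2 and Gpr15.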
